A study of Homo sapiens with 4 samples.

Results

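The sites described here are strong p53 ChIP-seq peaks that appeared at the same place in R273H and wildtype cells, at genes outside the usual lists of p53 targets. They lie inside or within 50 kb of 8 member genes, CASZ1, GAS6, GAS6-AS1, LINC02099, DLEU1, DLEU1-AS1, LINC01732 and LOC124901431, out of 59679 annotated genes. GAS6 shares its site with GAS6-AS1, and DLEU1 with DLEU1-AS1, so the 8 genes form 6 loci. The loci held 6 of the 2008 R273H peaks and 7 of the 2059 wildtype peaks. The genes were selected on high peak scores and on overlap between the lists, so scores, ranks and overlap at these loci are a description and no test is given for them.

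Both groups were spheroid cultures of HCT116, a human colorectal cancer cell line, at passages 13 to 18, in serum-free medium with B27 supplement and 20 ng/ml of each of 2 growth factors, epidermal and basic fibroblast. Cells labelled p53-R273H were set against cells labelled wildtype control. Each group had 1 ChIP library with the p53 antibody DO-1, whose epitope in the N-terminal part of p53 is present in both proteins, and 1 input library. The sources used here do not give how R273H was introduced, how many clones were used or whether a wildtype allele remained. The label of the wildtype ChIP sample points to the R273H list, and the lists were assigned by sample titles instead, so each statement by genotype below rests on that assignment. Read depth is unknown, there was no replicate of either genotype, and peak lists hold no expression values against which the cell type could be checked. The peak score is the authors' own, its scale is not given, and scores of the 2 lists are printed side by side without being compared.

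p53 is a transcription factor that binds DNA as a tetramer at response elements made of a pair of half-sites, in promoters and also in enhancers far from gene starts. The arginine altered in R273H touches the DNA backbone, and the change weakens binding to such elements. Among the member genes, CASZ1 encodes a zinc finger transcription factor with a role in heart, blood vessel and nerve cell development and is known as a tumour suppressor in neuroblastoma. GAS6 encodes a secreted, vitamin K-dependent ligand of the TAM receptor tyrosine kinases TYRO3, AXL and MERTK, and GAS6-AS1 is a long noncoding RNA (lncRNA) gene that overlaps it. DLEU1 is a long lncRNA gene in the region of chromosome 13 that is often deleted in chronic lymphocytic leukaemia, and DLEU1-AS1 lies within its span. LINC02099, LINC01732 and LOC124901431 are annotated only as lncRNA genes.

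The 6 shared sites differed in where they lay relative to genes: at 4 loci the paired peaks lay inside a member gene, at 1 they lay just beyond its end, and at 1 they lay between genes. None of them overlapped the annotated start of a gene in the RefSeq promoter table, which gives a window from 250 bases before to 50 bases after each start. That table had windows for 3 of the 8 member genes, GAS6, DLEU1 and DLEU1-AS1. The closest start in the table was that of DLEU1-AS1, a gene on the minus strand. Its window ended 1523 bp from the R273H peak and 1327 bp from the wildtype peak, and both peaks lay upstream of it. That window is shown because it is the nearest of those in the table to any of the sites. The table gives no start for LOC124901431, whose peaks lay close to one of its ends, nor for the other members without a window. It is given 5′ to 3′ from RefSeq, GRCh38.p14, chr13:50527400-50527699, minus strand, with its match to CATG, a core of the p53 half-site, in capitals.
DLEU1-AS1: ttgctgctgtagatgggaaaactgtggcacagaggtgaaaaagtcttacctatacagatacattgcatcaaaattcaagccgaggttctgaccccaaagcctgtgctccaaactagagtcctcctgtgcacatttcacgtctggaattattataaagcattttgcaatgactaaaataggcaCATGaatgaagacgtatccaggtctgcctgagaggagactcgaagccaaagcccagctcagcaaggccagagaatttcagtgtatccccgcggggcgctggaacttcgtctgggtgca

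The window held 1 CATG and no match to the p53 half-site consensus, which reads the same on both strands. Of all 35116 promoter windows, 54.9% held CATG, which also reads the same on both strands and is contained in some forms of the half-site, and 6.63% held a half-site match. The DLEU1 and GAS6 windows also held no half-site match, with 2 and 1 matches to CATG. The sequence under the peaks themselves was not analysed here.

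**Figure D1:**
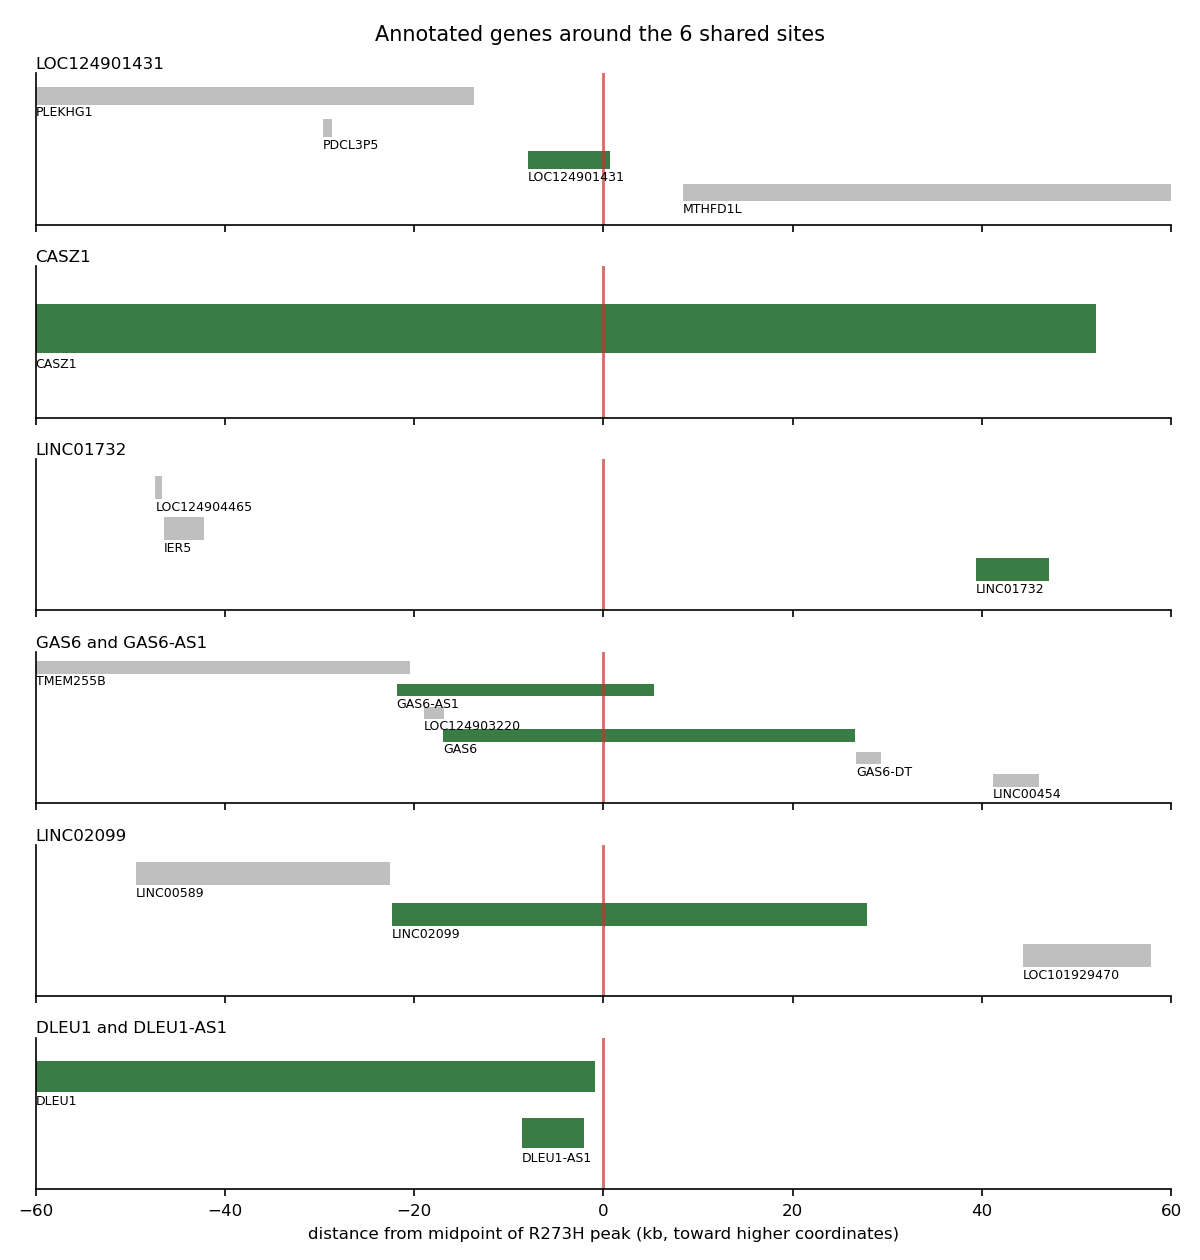
Annotated genes within 50 kb of the 6 shared sites, 1 panel per locus; the horizontal axis is the distance in kb from the midpoint of the R273H peak (red line), green bars are member genes, grey bars other genes, and bars that reach the edge continue beyond it. The site lies inside a member gene at LOC124901431, CASZ1, GAS6 with GAS6-AS1 and LINC02099, just beyond DLEU1, and 38770 bp from LINC01732.

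LOC124901431 carried the peak with the highest score of the 2008 R273H peaks. The lead over the 3 R273H peaks at exactly 3100 is not read as greater strength, since the scale of the score is not given. The R273H peak of LOC124901431 ran from 150856887 to 150857728 on chromosome 6 (build hg38) and scored 3204. Its wildtype peak ran from 150856838 to 150857762 and scored 3100. The gene spans 150849311 to 150857962, so the peaks ended 234 bp (R273H) and 200 bp (wildtype) short of its higher-coordinate end. The nearest other gene was MTHFD1L, which encodes a mitochondrial enzyme of folate metabolism and lay 7974 bp from the R273H peak and 7940 bp from the wildtype peak. MTHFD1L runs toward higher coordinates. The midpoint of the R273H peak lay 9026 bp upstream of its nearest start in the promoter table, against 9033 bp for the wildtype peak. The span of MTHFD1L begins nearer to the peaks, at 150865702. PLEKHG1 was 13222 bp from the R273H peak and 13173 bp from the wildtype peak, on the other side.

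CASZ1 held the narrowest of the 6 shared peaks, and no other annotated gene lay within 50 kb of it. The R273H peak covered 10744294 to 10744838 of chromosome 1, a width of 545 bp, with a score of 3100. The wildtype peak covered 10744269 to 10744831, 563 bp, also with a score of 3100. Both lay deep in the 160043 bp gene (10636604 to 10796646), with the R273H midpoint 107962 bp and the wildtype midpoint 107946 bp from its lower-coordinate end. CASZ1 had no other peak in either list. The nearest peaks outside the locus were 1454 kb away in both lists, inside the overlapping genes LNCTAM34A and MIR34AHG. MIR34AHG is the host gene of the p53-induced microRNA miR-34a.

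The site named for LINC01732 lay in a gap between genes. Its R273H peak ran from 181134588 to 181135714 on chromosome 1 and scored 3100, and its wildtype peak ran from 181134593 to 181135805 and also scored 3100. LINC01732 (181174484 to 181182208) began 38770 bp above the R273H peak and 38679 bp above the wildtype peak. IER5, an immediate early response gene on the other side, was nearly as close, 41688 bp below the R273H peak and 41693 bp below the wildtype peak. IER5 runs toward the site, and the R273H midpoint lay 46451 bp downstream of its start, against 46499 bp for the wildtype midpoint. The distances do not single out either gene. At 1127 bp (R273H) and 1213 bp (wildtype), these were the widest of the 6 pairs.

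GAS6 and GAS6-AS1 shared 1 site in the stretch where the genes overlap. The R273H peak at 113836938 to 113837997 of chromosome 13 scored 2445 and the wildtype peak at 113836925 to 113838024 scored 3100. The genes overlap over 22293 bp, from 113820549 to 113842841, so the peaks cannot be assigned to one of them. GAS6 lies on the minus strand, and the midpoint lay 26608 bp into the gene from its start for the R273H peak and 26602 bp for the wildtype peak. Of the genes within 50 kb that are not members, LOC124903220 was the nearest, 16317 bp from the R273H peak and 16304 bp from the wildtype peak. The lncRNA gene GAS6-DT, which starts beside GAS6 on the opposite strand, lay 26180 bp from the R273H peak and 26153 bp from the wildtype peak. TMEM255B, a membrane protein gene, lay 19943 bp from the R273H peak and 19930 bp from the wildtype peak, and the lncRNA gene LINC00454 lay 40631 bp from the R273H peak and 40604 bp from the wildtype peak. GAS6 was the only one of the 6 loci near a chromosome end, with its R273H midpoint 0.514 Mb below the last annotated base of chromosome 13. Its surroundings also held more peaks than those of the other loci, with 2 further R273H and 6 further wildtype peaks within 1 Mb, of which 1 in each list was shared.

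LINC02099 carried its site near the middle of the gene. The R273H peak covered 29770357 to 29770956 of chromosome 8 and scored 1809.58, and the wildtype peak covered 29770256 to 29771022 and scored 3100. The gene spans 29748309 to 29798492, and the midpoints lay 22348 bp (R273H) and 22330 bp (wildtype) from its lower-coordinate end. The lncRNA genes LINC00589 and LOC101929470 were the other genes within 50 kb, 22248 bp and 44048 bp from the R273H peak and 22147 bp and 43982 bp from the wildtype peak.

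The DLEU1 site lay just beyond the end of DLEU1 and upstream of DLEU1-AS1, whose promoter window is printed above. The R273H peak at 50529222 to 50529894 of chromosome 13 scored 1671 and the wildtype peak at 50529026 to 50529928 scored 2804. DLEU1 runs on the plus strand from 50082169 to 50528643, so the R273H peak began 579 bp and the wildtype peak 383 bp past its end. The R273H midpoint was 447389 bp from its start and the wildtype midpoint 447308 bp. From the start of DLEU1-AS1 on the minus strand, the R273H midpoint was 2109 bp upstream and the wildtype midpoint 2028 bp. No gene that is not a member lay within 50 kb of either peak. The wildtype list held a further peak inside DLEU1, at 50213750 to 50213892, with a width of 143 bp and a score of 50.01. That was the lowest score in the list, tied over ranks 2045 to 2059, and the lowest R273H score was 50.02. This further peak was 315 kb from the nearest R273H peak and had no partner. It was the only peak at the 6 loci found in 1 list alone. Since it stood at the lower limit of the scores, its absence from the R273H list is not read as a difference.

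The member peaks stood at the head of both lists, which is how the genes were chosen. In the R273H list LOC124901431 ranked first, CASZ1 and LINC01732 tied with a ribosomal RNA gene peak for ranks 3 to 5, GAS6 ranked 6, LINC02099 ranked 10 and DLEU1 ranked 11. Of the 11 R273H peaks at or above the DLEU1 score, 6 were at member loci, 2 among the ribosomal RNA genes on chromosome 21 below 9 Mb and 3 elsewhere. In the wildtype list 5 of the 6 loci were among the 22 peaks tied at 3100, and so cannot be ordered among themselves. Only the CDKN1A peak scored higher there, at 3106. Why many peaks held exactly 3100 is not given, and 3 R273H peaks held it too. Scores at and just above 3100 may therefore not order these peaks by strength in either list. DLEU1 ranked 27 in the wildtype list. Of the 27 wildtype peaks at or above its score, 6 were at member loci, 11 among those ribosomal RNA genes and 10 elsewhere. Just outside the member scores came the R273H peak near the interferon receptor gene IFNAR1 (1609) and the wildtype peak in MYO3B, a myosin gene (2644).

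**Figure D2:**
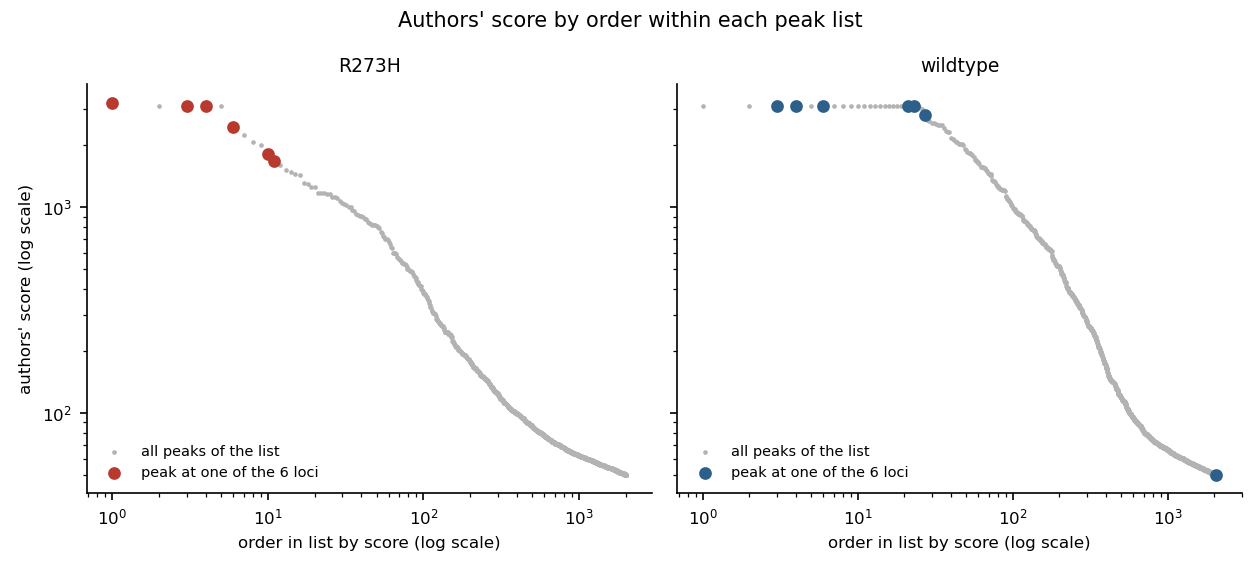
The authors' score (vertical axis, log scale) against order in the list (horizontal axis, log scale) for every R273H peak (left) and every wildtype peak (right); grey points are all peaks of the list and large coloured points the peaks at the 6 loci. Tied peaks are in order of chromosome and position. The 6 R273H peaks lie among the first 11, 6 wildtype peaks among the first 27, and the lowest-scoring DLEU1 peak at the bottom right.

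The R273H and wildtype peaks covered nearly the same bases at 4 of the 6 loci and shared fewer at LINC02099 and DLEU1. All 6 R273H peaks and 6 of the 7 wildtype peaks had a partner, where overlap by at least 1 bp was found for 21.9% of all R273H peaks and 21.2% of all wildtype peaks; since overlap was part of the choice, nothing is read from this. How closely the paired peaks coincide was not used to select the genes, but is read from the same peaks. The midpoints lay 7.0 bp apart at GAS6, 7.5 bp at LOC124901431, 16.0 bp at CASZ1, 17.5 bp at LINC02099, 48.0 bp at LINC01732 and 81.0 bp at DLEU1. The median was 16.8 bp, against 35.8 bp over the other 434 shared pairs (quartiles 16.5 to 77.5). Over the 21 other pairs with an R273H score of at least 1000, outside the ribosomal RNA genes of chromosome 21, it was 32 bp (quartiles 18.5 to 53). These 21 and the 6 overlap in range, and no test of the difference was made.

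The shared bases made up 96.4% of the joint span of both peaks at GAS6, 94.4% at CASZ1, 92.1% at LINC01732 and 91% at LOC124901431. They made up less at LINC02099 (78.2%) and DLEU1 (74.5%), the members with the lowest R273H scores. The 21 other high-scoring pairs ranged from 70.5% to 98.4%, with a median of 85.2%, so each member fell within their range.

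**Figure D3:**
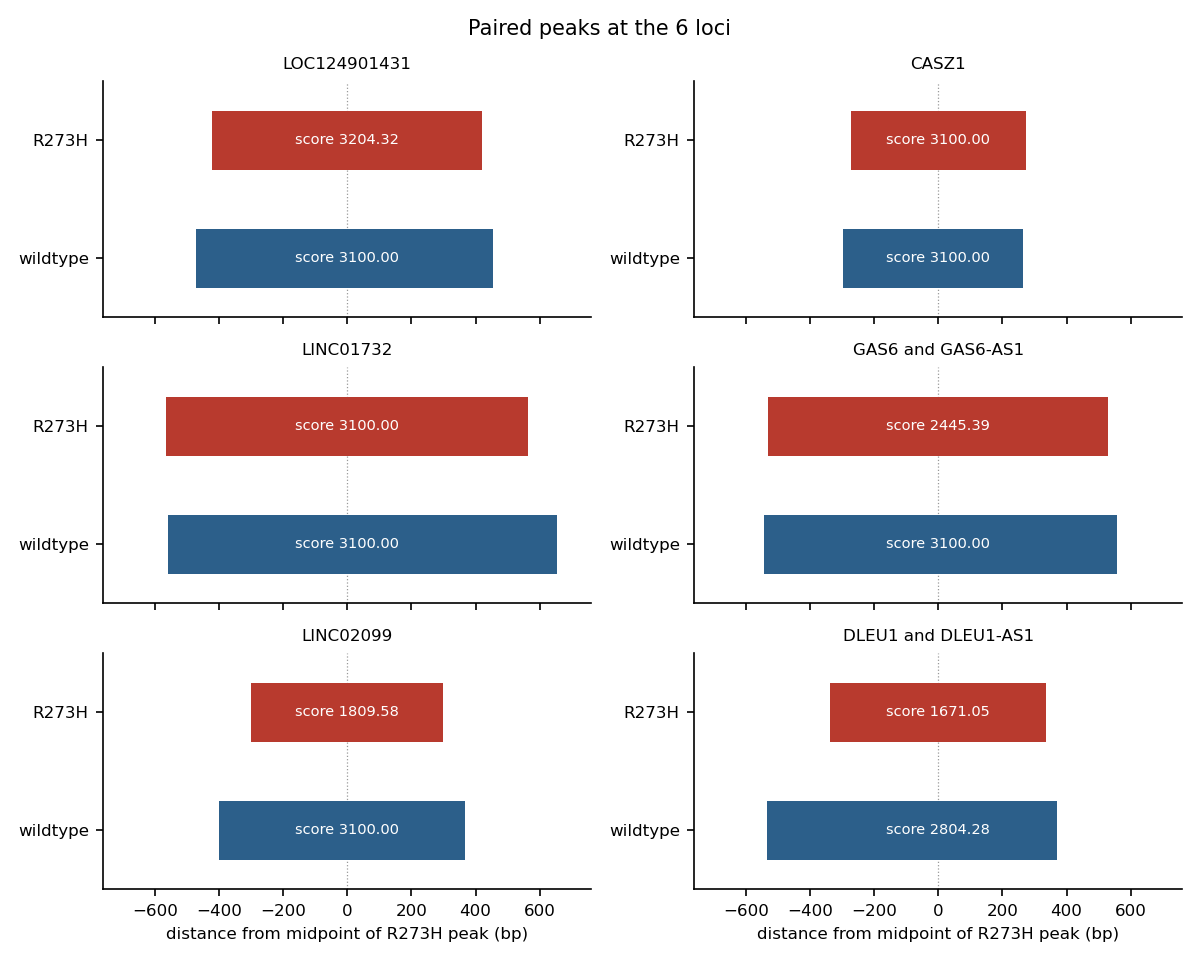
Extent of the R273H peak (red, upper bar) and the wildtype peak (blue, lower bar) at each locus, on an axis of distance in bp from the R273H midpoint, with the authors' score in each bar. The bars nearly coincide at GAS6 and CASZ1, and the wildtype bar reaches 196 bp further to the left at DLEU1.

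The wildtype peak was the wider one at all 6 loci. R273H widths were 842 bp at LOC124901431, 545 bp at CASZ1, 1127 bp at LINC01732, 1060 bp at GAS6, 600 bp at LINC02099 and 673 bp at DLEU1. The wildtype widths at the same loci were 925, 563, 1213, 1100, 767 and 903 bp. The difference was smallest at CASZ1, where the R273H peak was narrower by 18 bp, and largest at DLEU1, where it was narrower by 230 bp. Over all 440 shared R273H peaks, 79.1% were narrower than their wildtype partner, so the direction at the 6 loci is also that of most shared peaks. The R273H peak lay wholly within the wildtype peak at 4 of the 6 loci. This held for 59.1% of all 440 and for 16 of the 21 other high-scoring pairs (76.2%). At CASZ1 the R273H peak extended 7 bp past the wildtype peak at the higher end and at LINC01732 5 bp past it at the lower end. Peak width depends on read depth and on the peak caller's settings, neither of which is given in the sources used here, so width and genotype cannot be told apart from library depth.

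The paired member peaks were wider than most peaks of their lists and mostly within the width range of other high-scoring shared pairs. Their median width was 758 bp in R273H, against 683 bp for the 21 other high-scoring pairs (range 537 to 1203) and 451 bp for the 392 R273H peaks scoring at least 100. In wildtype it was 914 bp, against 802 bp for the 21 pairs (range 581 to 1223) and 482 bp for the 566 wildtype peaks scoring at least 100. The R273H peaks at CASZ1, LINC02099 and DLEU1 were narrower than the median of the 21. So were the wildtype peaks at CASZ1 (563 bp) and LINC02099 (767 bp), and that at CASZ1 lay below the range of the 21. At CASZ1 37% of all R273H peaks were wider, at LINC02099 33.1%, at DLEU1 29.8%, at LOC124901431 24.3%, at GAS6 20.3% and at LINC01732 19.5%. In the wildtype list these shares ran from 10.1% at LINC01732 to 27.9% at CASZ1.

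**Figure D4:**
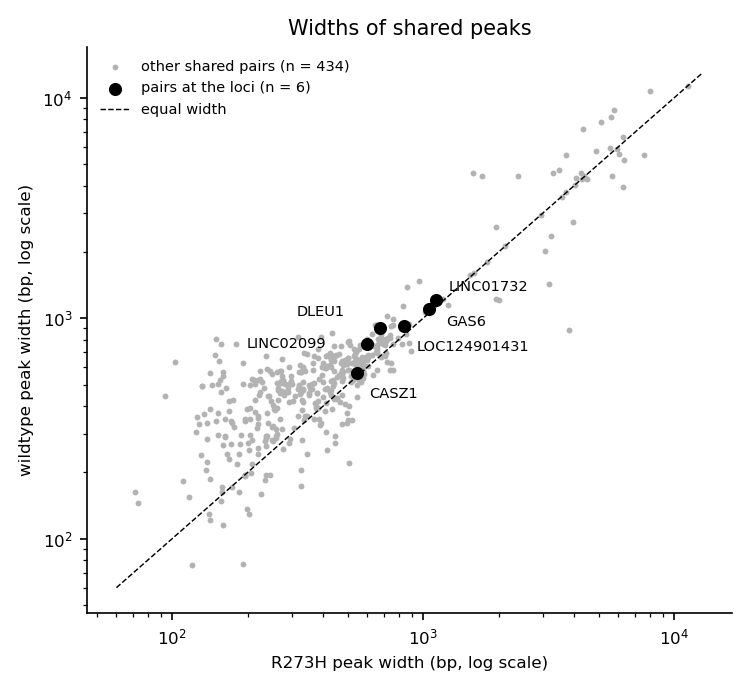
Width of the wildtype peak (vertical axis, bp, log scale) against that of its R273H partner (horizontal axis, bp, log scale) for all shared pairs; black points are the 6 loci, grey points the other 434 pairs, and the dashed line marks equal width. The black points lie above the line, CASZ1 and GAS6 closest to it.

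The distances to the nearest other peaks are given as a description, since peak density around other sites was not computed for comparison. No further R273H peak lay within 50 kb of a member gene, and the nearest beyond that distance was 151 kb from LOC124901431, 250 kb from the GAS6 genes, 340 kb from LINC01732, 833 kb from LINC02099, 1454 kb from CASZ1 and 2010 kb from the DLEU1 genes. In the wildtype list the nearest beyond 50 kb was 144 kb from the GAS6 genes, 339 kb from LINC01732, 589 kb from the DLEU1 genes, 666 kb from LOC124901431, 1008 kb from LINC02099 and 1454 kb from CASZ1. The scores of these neighbouring peaks ran from 51.79 to 166.40 in the R273H list without the MIR34AHG peak near CASZ1 and from 51.45 to 609.20 in the wildtype list without it. At CASZ1 and LINC01732 the nearest outside peak was itself shared between the lists. At GAS6, LINC02099 and LOC124901431 it had no partner in either list, and at DLEU1 the R273H one was shared and the wildtype one was not.

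Few genes linked to the member genes by function or position had a peak. None of 9 genes of the GAS6 axis, among them the receptors AXL, TYRO3 and MERTK, the related ligand PROS1 and the vitamin K cycle enzymes GGCX and VKORC1, had any peak inside the gene or within 50 kb. Over all annotated genes 6.16% had such an R273H peak, 8.84% such a wildtype peak and 2.95% both, so a count of 0 among 9 genes is near the background. Of 11 neighbours of DLEU1, among them DLEU2 with MIR15A and MIR16-1, the microRNA genes lost with it in leukaemia, none had an R273H peak. The pseudogene ST13P4, which lies within the span of DLEU1, was the only 1 with a wildtype peak, the one scoring 50.01.

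Of 13 genes of the NuRD complex, a chromatin remodelling and histone deacetylase complex with which CASZ1 is known to associate, 1 had a peak in R273H cells and 2 in wildtype cells. MBD3, a methyl-CpG-binding domain protein gene, had the R273H peak 2701 bp away (chromosome 19, 1570755 to 1570895, score 126). In the wildtype list GATAD2A, a zinc finger subunit gene, had a peak 17531 bp away (119), and MTA3, a metastasis-associated family member, had one 39105 bp away (58.9). None of these peaks had a partner in the other list. None of 6 neuroblastoma genes linked to CASZ1, among them NGFR and MYCN, had a peak in either list. In all, 1 of the 39 linked genes was near an R273H peak (2.56%) and 3 were near a wildtype peak (7.69%). These pooled shares were close to or below the shares over all genes. Among the 3, ST13P4 was counted through the DLEU1 peak scoring 50.01, itself a peak at a member locus.

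The shared peaks most like the member sites in rank were sought over both lists, by the summed difference of their rank percentiles from the member medians. The first 2 lay among the ribosomal RNA genes of chromosome 21, with widths of 11344 bp and 3234 bp in the R273H list that set them apart from the member peaks. The third was a site 26132 bp from LOC124907824 on chromosome 2, scoring 3114 as an R273H peak and 3100 as a wildtype peak, with widths of 1203 bp (R273H) and 1223 bp (wildtype), similar to the LINC01732 pair. Then came the site near IFNAR1 (R273H 1609, wildtype 3100) and a site 549 bp from the transfer RNA gene TRD-GTC2-10 on chromosome 12 (R273H 1524, wildtype 3100). The IFNAR1 pair was 760 bp wide in R273H and 994 bp in wildtype, and the TRD-GTC2-10 pair 721 bp and 1023 bp. Both differed more in width than any of the 6 member pairs.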

How the data were processed

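Peaks were taken from 2 lists deposited by the authors, 1 per genotype, with chromosome, start, end, name and a score for each peak, on a scale that the sources used here do not state. The peak names carry MACS. Per the submitters' processing notes, Bowtie 1.2.2, MACS, HOMER and build hg38 were used, with no roles stated. The sources used here do not give the peak threshold, the use of the input or any pooling. A list was tied to the ChIP sample whose title holds its name. The sample descriptions conflict with this: that of the wildtype ChIP sample gives the R273H list. If the lists were exchanged, every statement by genotype would turn. In the list assigned to wildtype the highest-scoring peak lay in CDKN1A, a p53 target gene, at 3106 against 22 peaks tied at 3100. The CDKN1A peak had a partner in the list assigned to R273H. It was not used for the assignment and does not decide it. Peak numbers began at 193 (R273H) and 228 (wildtype); the 192 and 227 lower numbers are absent from the lists used here for a reason not known, and ranks hold over the peaks present. Coordinates were converted to count from 1.

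Gene spans and promoter sequences came from RefSeq tables of GRCh38.p14, the assembly of hg38, limited to chromosomes 1 to 22, X and Y. The gene table gives no exons, so exon, intron and untranslated region are not stated. Peaks were assigned to a gene when inside or within 50 kb, and counted as shared at an overlap of at least 1 bp; the partner was the peak with the most shared bases. Tied scores share a range of ranks. Strand was taken from the promoter table. The p53 half-site was searched with Python 3.11.15, as were CATG matches. Overlaps and distances were tested on simulated data. With 1 ChIP library per genotype no p-value was computed. The alternatives were other windows, other overlap rules and peaks scoring at least 100.

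Named were the 8 member genes, genes near their peaks, genes of 4 linked lists with a peak (1 listed gene is not reported here), the nearest peaks beyond 50 kb and the 5 shared peaks nearest in rank. Members and lists were chosen with earlier results of these data known.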

Additional observations from a re-analysis of the deposited data

How the results depend on the processing

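The counts of peaks, partners and loci with a shared peak at the member genes stayed within 1.5 times their values under every alternative run: windows of 0, 10 and 100 kb, reciprocal overlap of at least 50%, a midpoint distance of at most 200 bp, a gap of at most 1000 bp, and peaks scoring at least 100. With a window of 0 kb, 4 loci had a shared peak, since the sites beyond DLEU1 and near LINC01732 fell out, and with 10 kb 5 did. The counts of linked genes moved more. With 0 kb, 0 of 39 held an R273H peak and 0 held a wildtype one. With 10 kb, 0 had a wildtype peak, with 100 kb 10 did, and with peaks scoring at least 100 1 did. The wider window and the score filter change these counts by their construction. The share over all genes was computed only for 50 kb and all peaks. The counts at the other settings therefore have no background beside them, and nothing is read from them. The share of shared R273H peaks lying within their wildtype partner was 65.7% when both had to score at least 100, against 59.1% over all 440. No paired analysis was possible because each genotype had 1 ChIP library and no test was made. Read depth is unknown, so what the lists could miss cannot be given.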
